A study of Mus musculus with 24 samples.

Results

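The genes described here are 10 markers of resident and alternatively activated macrophages: Lyve1, Folr2, Cd163, Mrc1, Retnla, Cbr2, F13a1, Arg1, Csf1r and Tgfbi. They were chosen by symbol from the 24016 gene symbols of the deposited table, which gives RPKM (reads divided by transcript length in kilobases and by the library total in M). Where a symbol had several transcripts, the one whose mean RPKM was highest stood for it. Poly(A) RNA of hindlimb muscle from C57BL/6 mice had been sequenced on day 7 after the femoral artery was ligated on 1 side. The 4 groups, with 6 libraries each, were the adductor of control mice, the adductor of mice labelled type 2 diabetic, and the gastrocnemius of control and of diabetic mice. All of the groups carry the ligation, so no group comes from mice without the operation. The labels call the adductor normoxic and the gastrocnemius ischemic, so ischemia and the identity of the muscle cannot be told apart. They give neither the way diabetes was produced nor the animals behind the libraries, so p-values measure only the spread between these libraries, which may be technical.

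Tissue macrophages that persist in a resting organ carry scavenger and endocytic receptors such as CD163, the mannose receptor and, in a population around blood vessels, LYVE1 and folate receptor beta. After injury to skeletal muscle, monocytes enter from the blood and turn into macrophages that clear debris and later support repair. Interleukin-4 and interleukin-13 act through the transcription factor STAT6 and induce genes of alternative activation, among them Arg1, Retnla and Mrc1 in the mouse. Survival of most macrophages needs the receptor encoded by Csf1r, and their gene programme depends on the transcription factor PU.1. Several members are also expressed outside macrophages: Lyve1 marks lymphatic endothelium, F13a1 is a product of megakaryocytes and platelets, Tgfbi is made by fibroblasts, and Retnla is abundant in adipose tissue.

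The members differ in the letters just before their transcription starts. RefSeq windows of the 250 bases upstream of the start (build GRCm38.p6) were at hand for 7 members and gave 9 windows. The sequences of Retnla and Mrc1 are shown because these members moved in opposite directions between the muscles. Capitals mark every match, on either strand, to TTCNNNNGAA (a spaced pair of STAT half-sites), GAGGAA (a PU.1 core) and TTGCNNAA (a C/EBP core), and no 2 of the matches shown overlap.
Retnla upstream, chr16:48842359-48842608, plus strand: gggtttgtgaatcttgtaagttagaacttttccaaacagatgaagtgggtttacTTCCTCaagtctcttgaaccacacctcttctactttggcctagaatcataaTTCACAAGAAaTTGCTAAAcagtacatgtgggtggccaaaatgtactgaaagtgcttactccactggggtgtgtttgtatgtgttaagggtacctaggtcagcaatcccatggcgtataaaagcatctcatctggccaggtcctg
Mrc1 upstream, chr2:14229164-14229413, plus strand: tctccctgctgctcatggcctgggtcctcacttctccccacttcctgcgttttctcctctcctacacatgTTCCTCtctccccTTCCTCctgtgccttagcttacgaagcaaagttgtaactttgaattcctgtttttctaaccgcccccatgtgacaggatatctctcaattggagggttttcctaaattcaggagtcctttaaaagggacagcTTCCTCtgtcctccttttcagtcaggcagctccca
Counted backwards from the base before the start, the STAT match of Retnla lay at -145 to -136 and its C/EBP match at -134 to -127. Of the 7 members, Retnla alone held the STAT letters, which occurred in 5.85% of 32851 RefSeq windows of this length, and it alone held the C/EBP letters, which occurred in 9.56%. The PU.1 letters occurred in 23.3% of all windows and in 4 members: Cbr2, F13a1, Mrc1 and Retnla. Mrc1 held them at 3 places, starting at -180, -167 and -35, all on the minus strand. Such matches describe the letters in the window and do not show binding.

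Library totals ran from 7.13 to 15.6 M reads. The libraries fell into a first technical set of 14 (in each muscle control libraries 1, 2 and 3 with diabetic libraries 1, 2, 3 and 4, where Gapdh was at 100 RPKM or more) and a second of 10, which the labels do not name. Within the second set, Gapdh was 0.365 to 0.831 RPKM in the control libraries and 3.71 to 13.7 in the diabetic ones. In that set, diabetes and a further technical split of the libraries cannot be told apart. Markers common to macrophages (14 genes such as Cd68, Emr1 and Tyrobp, all detected) summed to 23.3 to 132 RPKM in the control adductor and to 44.7 to 78.7 in the diabetic adductor. In the gastrocnemius they summed to 216 to 932 RPKM in control and 286 to 881 in diabetic mice. Control library 3, with 216, and diabetic library 2, with 286, were lowest by a wide gap, as the other 10 gastrocnemius libraries began at 597. These 2 libraries are named beside the results they touch, and refitting without them was chosen after their values were seen. In whole muscle, fewer cells of a type and less RNA per cell cannot be told apart.

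Between the muscles the members divided into 3 patterns. Csf1r, Tgfbi, Folr2, Mrc1 and Arg1 were higher in the ischemic gastrocnemius than in the adductor in both control and diabetic mice. Retnla was lower in the gastrocnemius in both. Lyve1, Cd163, Cbr2 and F13a1 did not pass the test, which did not pair libraries, in either. In limma on log2(RPKM + 0.5), with Benjamini-Hochberg adjustment over 12382 tested genes and a threshold of 0.05, 5 of the 10 members were called higher and 1 lower in each mouse group. Of all tested genes, 63.1% were called in control mice (54.4% higher and 8.7% lower) and 56.9% in diabetic mice (48.1% higher and 8.83% lower). On the RPKM scale a share of 5 in 10 members called higher is therefore near that of all genes. Arg1, among these 5, passed the filter on low values through the gastrocnemius alone, so its selection favoured a higher call. Its call in diabetic mice was lost under several alternatives given below. With median-of-ratios scaling, 28.3% of all genes were called higher and 26.5% lower in control mice and 27.3% and 26.5% in diabetic mice, beside 5 members higher and 3 lower and 4 higher and 3 lower. Without control gastrocnemius library 3 and diabetic gastrocnemius library 2, 5 members were likewise called higher and 1 lower in each mouse group. The median log2 difference of the members was 1.55 in control and 1.18 in diabetic mice, beside 0.66 and 0.55 for all tested genes.

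**Figure D1:**
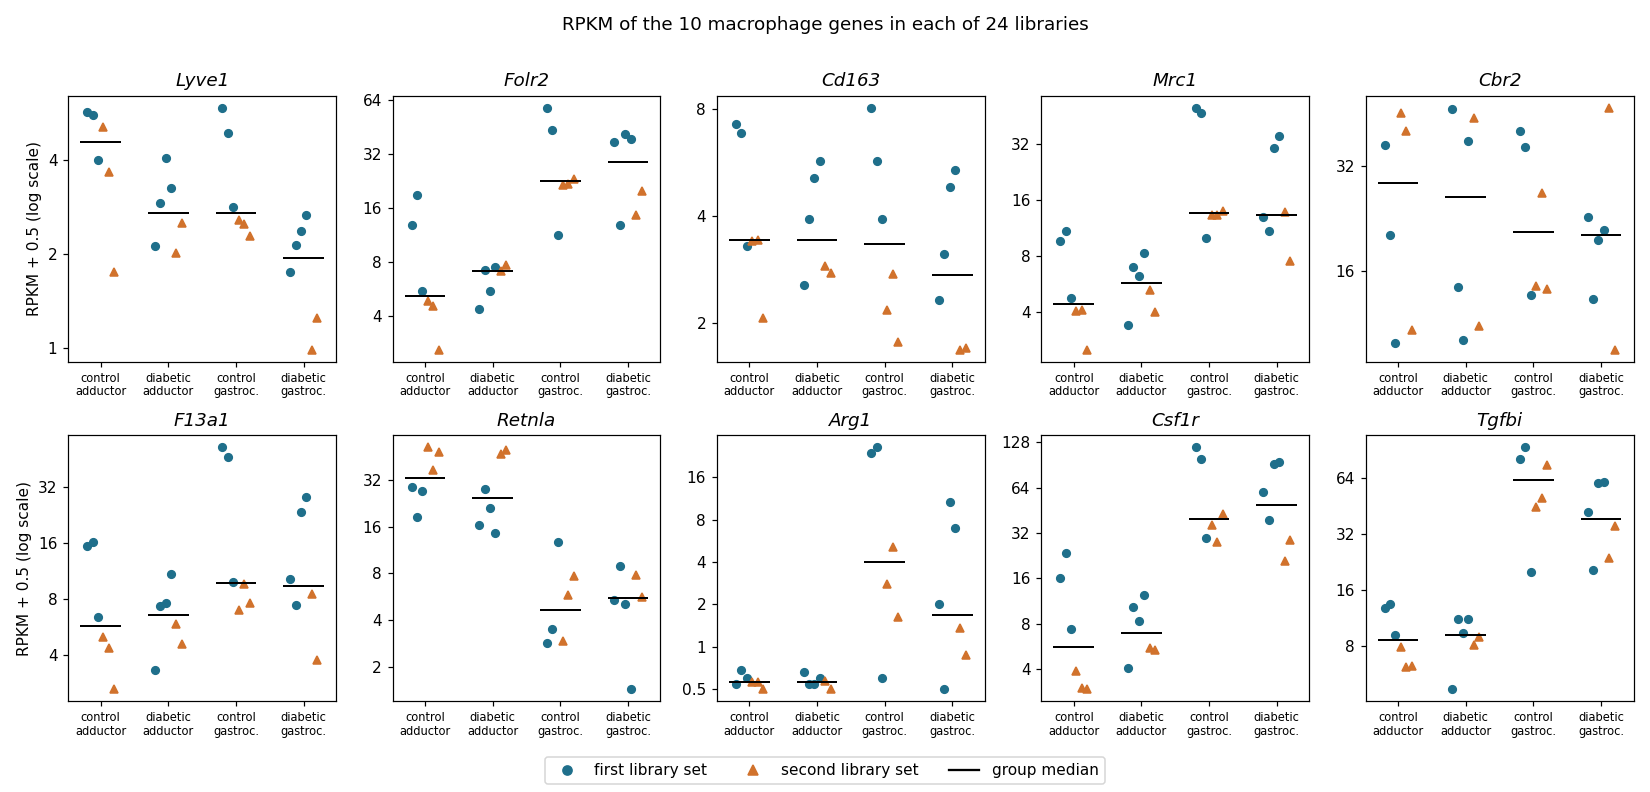
RPKM plus 0.5, on a log axis, of each of the 10 members in the 24 libraries; circles are the first and triangles the second technical library set, and black lines are group medians of 6 libraries. Retnla lies at 14.2 RPKM or more in every adductor library and at 12.3 or less in every gastrocnemius library, while Arg1 stays at 0.189 RPKM or less in the adductor.

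Csf1r encodes the receptor for macrophage colony-stimulating factor and interleukin-34. Its RPKM ran from 2.43 to 23.0 with a median of 5.13 in the control adductor, and from 27.5 to 118 with a median of 38.9 in the control gastrocnemius. In diabetic mice it ran from 3.56 to 11.8 (median 6.40) in the adductor and from 20.4 to 94.0 (median 48.7) in the gastrocnemius. The muscles did not overlap in either mouse group. The difference on the log2(RPKM + 0.5) scale was 2.88 ± 0.52 (SE; limma adjusted p = 4.22e-05, n = 6 per group) in control and 2.76 ± 0.52 (8.29e-05) in diabetic mice. In control mice the first library set gave 2.33 and the second 3.43, and in diabetic mice 3.05 and 2.19.

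Folate receptor beta, encoded by Folr2 (mm9 chr7:108988502-108993845, minus strand), binds folate at the macrophage surface. Its RPKM was 2.11 to 18.4 (median 4.69) in the control adductor and 10.8 to 57.7 (median 22.1) in the control gastrocnemius. The low gastrocnemius value was that of library 3, and 2 adductor libraries, 12.4 and 18.4, lay above it. In diabetic mice Folr2 was 3.90 to 7.19 (median 6.69) in the adductor and 12.4 to 41.1 (median 28.4) in the gastrocnemius, with no overlap. The log2 differences were 2.00 ± 0.43 (limma adjusted p = 0.000313) and 1.94 ± 0.43 (0.000505).

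Mrc1 (mm9 chr2:14151041-14253650, plus strand) encodes the mannose receptor CD206, an endocytic lectin. Control adductor libraries held 1.99 to 10.3 RPKM (median 3.90) and control gastrocnemius libraries 9.47 to 49.3 (median 13.1). Again it was gastrocnemius library 3 that fell inside the range of the adductor. Diabetic libraries held 2.90 to 7.74 (median 5.2) and 6.94 to 34.7 (median 12.8). The difference in control mice was 1.91 ± 0.44 (limma adjusted p = 0.000695) and in diabetic mice 1.54 ± 0.44 (0.00494). When libraries were rescaled by median-of-ratios size factors, the diabetic difference was 0.90 ± 0.38 and no longer passed (limma adjusted p = 0.0507).

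Tgfbi (mm9 chr13:56710964-56740700, plus strand) encodes a secreted matrix protein that transforming growth factor beta induces. It lay between 5.66 and 12.9 RPKM (median 8.11) in the control adductor and between 19.6 and 93.5 (median 62.3) in the control gastrocnemius. The diabetic values were 4.19 to 10.7 (median 8.71) and 20.0 to 60.7 (median 38.2). No gastrocnemius library overlapped an adductor library of the same mouse group. The log2 difference was 2.62 ± 0.34 (limma adjusted p = 9.29e-07) in control and 2.12 ± 0.34 (1.64e-05) in diabetic mice. Fibroblasts also make Tgfbi, and 7 of 7 fibroblast markers were called higher in the gastrocnemius of both mouse groups, and 4 of 7 with median-of-ratios scaling. Their summed RPKM was 194 to 1039 in the control and 247 to 507 in the diabetic adductor, and 1904 to 6827 in the control and 1527 to 5657 in the diabetic gastrocnemius. The part of fibroblasts in the Tgfbi difference was not tested.

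Arg1 (mm9 chr10:24635013-24647276, minus strand) encodes arginase 1, which turns arginine into ornithine and urea. The adductor libraries held between 0 and 4 reads of it, or 0 to 0.189 RPKM. Control gastrocnemius libraries 1 to 6 held 23.4, 25.5, 0.10, 2.31, 4.63 and 1.12 RPKM, and the diabetic ones 1.52, 0, 10.1, 6.50, 0.865 and 0.380. The libraries without appreciable Arg1, with 2 reads and 0 reads, were control 3 and diabetic 2, the same that were lowest in the common macrophage markers. All 4 values above 6 RPKM came from the first library set. Arg1 passed the filter on low values through the gastrocnemius alone, with 1 RPKM or more in 8 of 24 libraries. The log2(RPKM + 0.5) difference, which understates the change of so low a gene, was 2.98 ± 0.74 (limma adjusted p = 0.00129) in control mice.

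In diabetic mice the Arg1 difference was 1.90 ± 0.74 (limma adjusted p = 0.0323) and the call was lost under several alternatives. It ended in either library set alone (adjusted p = 0.0713 in the first and 0.0824 in the second), with a pseudocount of 1 (0.0562), with quantile normalization (0.139) and with voom on the recovered reads (0.0904). Leaving out diabetic adductor library 6 (1.86, adjusted p = 0.0512), diabetic gastrocnemius library 3 (1.43, 0.102) or diabetic gastrocnemius library 4 (1.55, 0.0900) also ended it. The difference stayed positive in all of these fits, from 1.03 in the second set to 3.60 with voom. The voom value is on a scale of log2 read counts with its own offset, so its size cannot be set beside the others. Without control gastrocnemius library 3 and diabetic gastrocnemius library 2, the differences were 3.56 ± 0.63 (4.46e-05) in control and 2.31 ± 0.63 (0.00343) in diabetic mice.

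Retnla (mm9 chr16:48842665-48844574, plus strand) encodes the secreted protein RELM-alpha, also called FIZZ1. It was the member called lower in the gastrocnemius on the RPKM scale. Control adductor libraries 1 to 6 held 28.4, 18.1, 26.9, 51.9, 36.8 and 48.6 RPKM, and control gastrocnemius libraries 2.32, 3.0, 12.3, 2.42, 5.33 and 7.16. Diabetic adductor libraries held 16.1, 27.8, 20.6, 14.2, 46.7 and 50.1 RPKM, and diabetic gastrocnemius libraries 4.89, 8.50, 4.61, 0.925, 7.27 and 5.17. Every adductor library was above every gastrocnemius library. The highest gastrocnemius values of each mouse group, 12.3 and 8.50, were those of the libraries lowest in the common macrophage markers. In the adductor the second library set, at 36.8 to 51.9, lay above the first, at 14.2 to 28.4.

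The log2 difference of Retnla was -2.73 ± 0.43 (limma adjusted p = 9.79e-06) in control and -2.41 ± 0.43 (5.41e-05) in diabetic mice. In control mice the first library set gave -2.29 and the second -3.17, and in diabetic mice -2.17 and -2.88. Among the 12382 tested genes it ranked 39th from the lowest in control and 37th in diabetic mice. Its transcript is 597 bases long and held 8 to 322 reads per library. Retnla belongs to a family of similar genes, and no source used here says how reads matching several places were counted. Of 6 adipocyte markers, 1 (Retn) was called lower in the gastrocnemius of control mice and none in diabetic mice, beside 3 and 2 with median-of-ratios scaling. Their sums overlapped, at 74.2 to 245 RPKM in the control and 44.1 to 160 in the diabetic adductor, and at 22.2 to 259 and 38.9 to 363 in the gastrocnemius. Their part in the Retnla difference was not tested.

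Retnla, Csf1r and Tgfbi were the 3 members whose muscles did not overlap in control mice, and Folr2 joined them in diabetic mice. Of all tested genes, 33.3% were higher in the gastrocnemius without overlap and 3% lower in control mice, and 29% and 2.33% in diabetic mice.

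**Figure D2:**
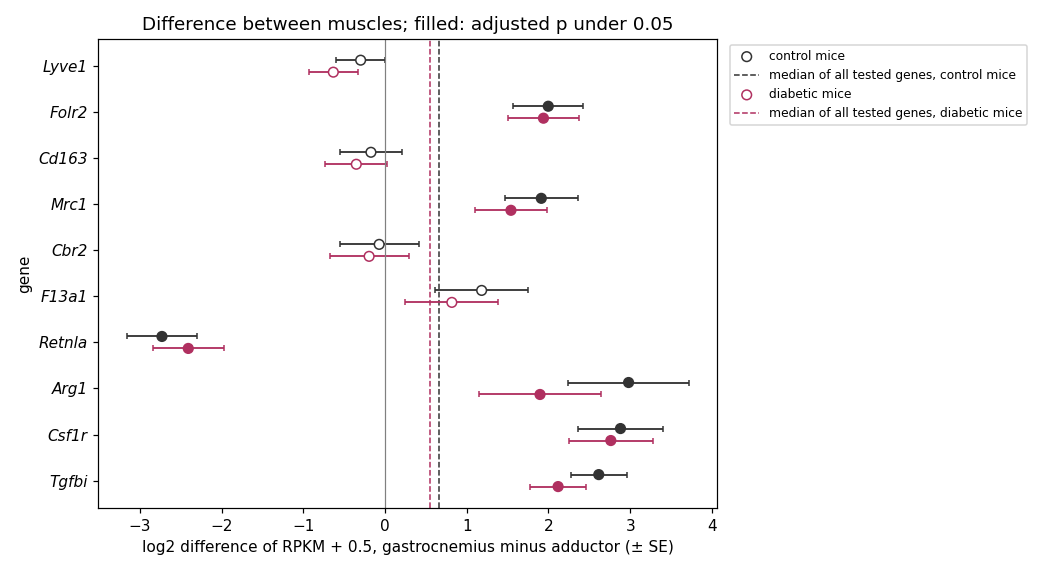
Log2 difference of RPKM + 0.5 between gastrocnemius and adductor, ± SE from limma, for the 10 members in control (dark) and diabetic (red) mice; filled points passed an adjusted p of 0.05 and dashed lines are the medians of all tested genes, 0.66 and 0.55. Csf1r, Tgfbi, Folr2, Mrc1 and Arg1 lie to the right of the medians with filled points, and Retnla, at -2.73 and -2.41, lies alone on the far left.

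Lyve1 (mm9 chr7:117994121-118006467, minus strand), a receptor for hyaluronan, was low throughout. Its RPKM was 1.25 to 5.15 (median 4.04) in the control adductor, 1.79 to 5.35 (median 2.19) in the control gastrocnemius, 1.51 to 3.55 (median 2.20) in the diabetic adductor and 0.490 to 2.17 (median 1.44) in the diabetic gastrocnemius. The muscles overlapped in both mouse groups, and the log2 differences of -0.30 ± 0.30 (limma adjusted p = 0.403) and -0.63 ± 0.30 (0.0781) were not called. The diabetic difference passed when control adductor library 6 or diabetic gastrocnemius library 4 was left out (0.0467 in both). Cd163 (mm9 chr6:124254669-124280545, plus strand), which takes up complexes of hemoglobin and haptoglobin, was as low. Its values were 1.57 to 6.75 (median 2.92) and 1.28 to 7.54 (median 2.84) in the adductor and gastrocnemius of control mice, and 2.07 to 5.2 (median 2.92) and 1.19 to 4.87 (median 2.24) in those of diabetic mice. Its differences were -0.17 ± 0.38 (limma adjusted p = 0.71) and -0.35 ± 0.38 (0.45).

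The calls for these receptors depended on the scale. All gastrocnemius libraries had median-of-ratios size factors of 1.0 to 1.64 and all adductor libraries 0.686 to 0.888, so that this scaling moved the median of all genes from 0.66 to -0.02 in control and from 0.55 to -0.04 in diabetic mice. It changed the split of calls from 6730 higher and 1077 lower to 3506 and 3285 in control mice, and from 5958 and 1093 to 3376 and 3284 in diabetic mice. On that scale Lyve1 was lower in the gastrocnemius by a log2 difference of -0.99 (limma adjusted p = 0.00307) in control and -1.17 (0.000758) in diabetic mice. Cd163 was lower by -0.86 (0.0292) and -0.94 (0.0192). Quantile normalization gave -1.16 and -1.43 for Lyve1 and -1.03 and -1.11 for Cd163, all called. The direction of the 6 members called above did not turn under either scaling.

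Markers of skeletal muscle fibres summed to 38593 to 67800 RPKM in the control and 32288 to 64869 in the diabetic adductor, and to 11049 to 42352 in the control and 14281 to 42111 in the diabetic gastrocnemius. Their part in the member differences was not tested.

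Where same-numbered libraries of both muscles of a mouse group were paired, the differences kept their size and the errors shrank. In diabetic mice the block on replicate number then brought Lyve1 (limma adjusted p = 0.00486) and Cd163 (0.0468) to a lower call and F13a1 (0.00969) to a higher one. In control mice it added F13a1 (0.000624). The paired fit therefore called 6 members higher and 1 lower in control and 6 higher and 3 lower in diabetic mice. Of all tested genes the same fit called 62.9% higher and 11.2% lower in control mice, and 56.7% and 11.9% in diabetic mice.

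F13a1 (mm9 chr13:36959047-37141082, minus strand) encodes the catalytic subunit of coagulation factor XIII, which crosslinks fibrin. It held 2.09 to 15.7 RPKM (median 5.18) in the control adductor and 6.43 to 52.2 (median 9.20) in the control gastrocnemius, where libraries 1 and 2, with 52.2 and 46.2, stood above the other four, at 9.33 or less. Diabetic values were 2.79 to 10.4 (median 6.06) and 3.22 to 27.7 (median 8.84). The differences of 1.18 ± 0.57 (limma adjusted p = 0.0728) and 0.82 ± 0.57 (0.228) were not called. Beside the paired fit, the control difference passed with a term for the library set (1.5 ± 0.52, 0.0132), in the second set alone (1.05 ± 0.34, 0.0229), and when control adductor library 1 or 2 or control gastrocnemius library 4 or 6 was left out, with adjusted p from 0.0354 to 0.0473. Median-of-ratios scaling brought it down to 0.42 ± 0.51 (0.505) in control and 0.17 ± 0.51 (0.793) in diabetic mice, quantile normalization to 0.52 ± 0.55 (0.443) and 0.27 ± 0.55 (0.701), and the second set alone gave 0.12 ± 0.42 (0.833) in diabetic mice. The sum of 6 platelet markers was 1.18 to 3.12 RPKM in the control and 0.786 to 2.20 in the diabetic adductor, and 4.11 to 16.5 and 3.07 to 15.5 in the gastrocnemius. Gp1bb and Itgb3, the 2 of the 6 that were tested, were called higher in both mouse groups, Gp9 was at 0 in all diabetic gastrocnemius libraries, and the part of platelets in the F13a1 values was not tested.

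Lyve1 and lymphatic endothelium were set side by side in the same way. The sum of 6 lymphatic markers was 3.55 to 7.97 RPKM in the control and 2.96 to 6.33 in the diabetic adductor, and 16.2 to 37.6 and 14.3 to 27.2 in the gastrocnemius. Most of it was Pdpn, a glycoprotein that fibroblasts also carry, at a mean of 27.8 RPKM in the control gastrocnemius. The lymphatic regulator Prox1 had means of 0.275 to 1.13 RPKM in the 4 groups, and the lymphatic chemokine Ccl21a was at 0 in all libraries but those of the diabetic adductor, where its mean was 0.0140. Since no source used here says how reads matching several places were counted, such a 0 need not mean absence. The part of lymphatic vessels in the Lyve1 values was not tested.

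Cbr2 (mm9 chr11:120590799-120593335, minus strand) encodes a carbonyl reductase. Its values were 9.37 to 45.2 RPKM (median 28.1) in the control adductor, 13.1 to 39.9 (median 20.1) in the control gastrocnemius, 9.58 to 46.4 (median 25.6) in the diabetic adductor and 8.94 to 46.8 (median 19.8) in the diabetic gastrocnemius. Muscle differences of -0.07 ± 0.48 (limma adjusted p = 0.908) and -0.19 ± 0.48 (0.756) were not called. Within each adductor group 3 libraries lay at 36.4 or above and 3 at 19.8 or below. All 6 high libraries held RNA of Ddx3y, a Y-linked helicase gene, and all 6 low libraries held Xist, the RNA of the inactive X chromosome. The Ddx3y libraries had Cbr2 at 36.4 to 46.4 RPKM (median 41.8) and the Xist libraries at 9.37 to 19.8 (median 10.4), in both mouse groups and both library sets. In the gastrocnemius the ranges overlapped, at 13.9 to 46.8 and 8.94 to 36.0.

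The labels give no sex, this division was read from the libraries after their values were seen, and it was given no test. Of all tested genes, 0.67% (83) did not overlap between these adductor libraries, a count that includes Xist and Ddx3y themselves. Cbr2 was the only one of the 10 members among them. Ddx3y and Xist libraries made up 3 and 3 of each of the 4 groups. In every group the Ddx3y libraries were numbers 1, 4 and 5 and the Xist libraries numbers 2, 3 and 6.

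**Figure D3:**
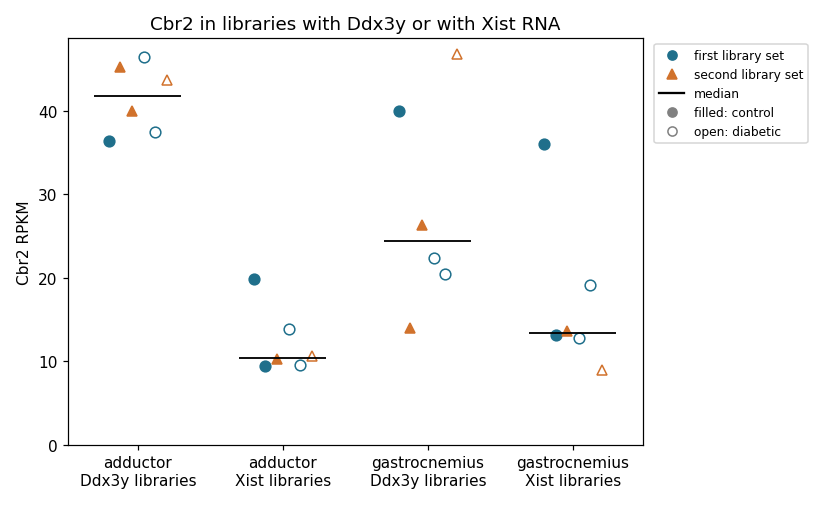
Cbr2 RPKM in the 12 adductor and 12 gastrocnemius libraries, divided by whether the library held Ddx3y or Xist RNA; filled symbols are control and open symbols diabetic mice, circles the first and triangles the second library set, lines the medians. In the adductor the Ddx3y libraries begin at 36.4 and the Xist libraries end at 19.8, while the gastrocnemius libraries overlap.

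The common macrophage markers moved further between the muscles than most members did, a difference that was not tested. All 14 were called higher in the gastrocnemius in both mouse groups, with a median log2 difference of 3.27 in control and 3.21 in diabetic mice. Cd68, a lysosomal glycoprotein, differed by 4.57 ± 0.44 in control mice (limma adjusted p = 2.8e-08). As a percentage of the summed RPKM of the 14 markers, Csf1r had a median of 14.0% in the control adductor and 8.23% in the control gastrocnemius, and 12.4% and 8.89% in diabetic mice. Mrc1 had 8.19% and 3.11% in control and 8.42% and 2.57% in diabetic mice. Cd163 had 5.77% and 0.450%, and 5.07% and 0.366%. Retnla had 64.8% and 0.533%, and 45.5% and 0.704%. Arg1 was the exception, with medians of 0.0931% and 0.478% in control and 0.0975% and 0.137% in diabetic mice. Its adductor values rest on 0 to 4 reads per library, and the muscles overlapped. The ranges were 0 to 0.348% and 0.0464% to 2.93% in control mice, and 0 to 0.352% and 0 to 1.22% in diabetic mice. All of these percentages are ratios of sums of different genes, given as a description.

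**Figure D4:**
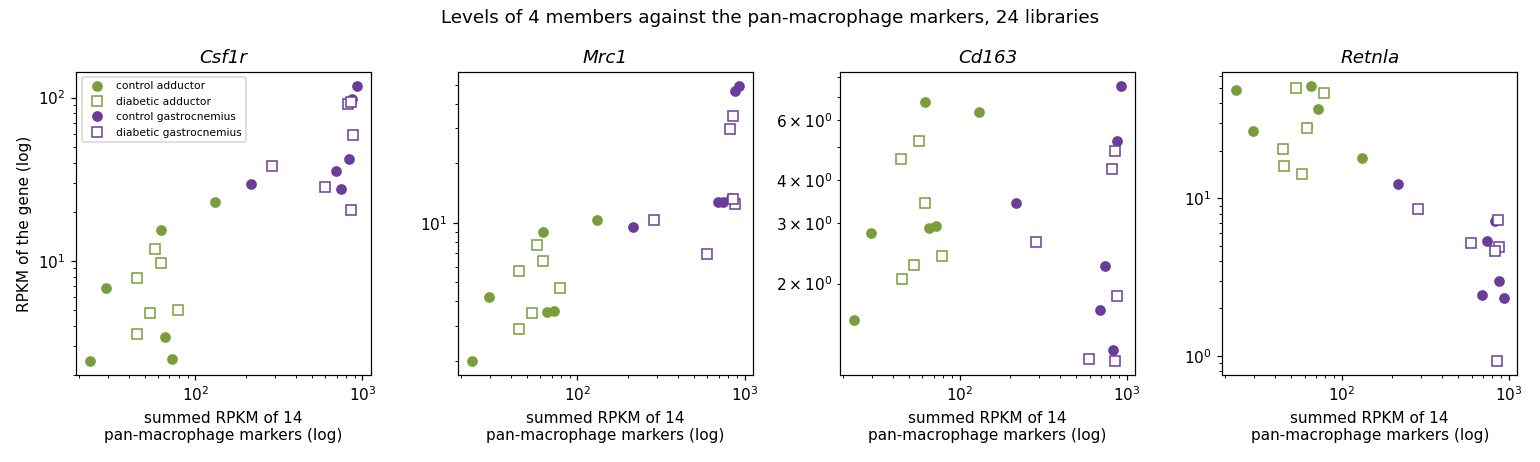
RPKM of Csf1r, Mrc1, Cd163 and Retnla (vertical, log axis) against the summed RPKM of 14 macrophage markers (horizontal, log axis) in 24 libraries; green is adductor, purple gastrocnemius, filled circles control and open squares diabetic. Csf1r and Mrc1 lie higher at the high sums of the gastrocnemius, Cd163 does not, and Retnla lies lower.

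Other genes of the same programmes were counted from lists. Beside these and the lists that follow, 54.4% of all tested genes were called higher and 8.7% lower in control mice, and 48.1% and 8.83% in diabetic mice. With median-of-ratios scaling the shares were 28.3% and 26.5% in control and 27.3% and 26.5% in diabetic mice. Of 15 tested genes of resident macrophages, 10 were called higher and 3 lower in the gastrocnemius of control mice, with a median log2 difference of 0.98, beside 9 and 4 in diabetic mice, with 0.92. Ninj1 (1.86 ± 0.23, limma adjusted p = 5.4e-07), Sepp1 (1.86 ± 0.29, 6.6e-06), Pf4 (2.98 ± 0.46, 7.7e-06) and Fcrls (2.78 ± 0.45, 1.1e-05) were higher in control mice. The 3 lower ones, named after their values were seen, were the C-type lectin genes Cd209b (-1.20), Cd209f (-1.49) and Cd209g (-1.16). In diabetic mice these differed by -1.03, -1.67 and -1.16, and the transcription factor gene Maf, by -0.57, was the fourth. Cd209 genes form a family of related lectins, and no source used here says how reads matching several of them were counted. Of 9 tested genes of alternative activation, 6 were higher in control and 5 in diabetic mice and none was lower, with medians of 1.49 and 0.95. With median-of-ratios scaling 5 and 4 were higher and 1 lower in each, and resident genes were 6 higher and 4 lower in control and 7 and 4 in diabetic mice. Their medians were smaller on both other scales. For resident genes they were 0.25 in control and 0.36 in diabetic mice with median-of-ratios scaling, and 0.23 in both with quantile normalization. For alternative activation they were 1.15 and 0.61 with the former and 0.70 and 0.12 with the latter. Clec7a, the beta-glucan receptor, differed by 3.43 ± 0.31 in control mice (1.4e-08) and Il1rn, the interleukin-1 receptor antagonist, by 2.47 ± 0.32 (8.3e-07).

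Upstream of Retnla and Arg1, the ligand genes Il4 and Il13 were too low to test, with group means of at most 0.0840 and 0.0104 RPKM. Of 8 tested genes of interleukin-4 and related interleukin signalling, 7 were called higher in the gastrocnemius of both mouse groups, and 5 were higher and 1 lower with median-of-ratios scaling. The receptor chain Il4ra differed by 2.30 ± 0.34 (limma adjusted p = 4.7e-06) in control mice, Il13ra1 by 2.57 ± 0.29 (1.4e-07), Il2rg by 2.92 ± 0.36 (3.9e-07) and Il10ra by 2.56 ± 0.30 (2.7e-07). All 5 tested colony-stimulating factor and receptor genes beside Csf1r were called higher in both mouse groups, and 4 of 5 with median-of-ratios scaling. Csf1, a ligand of the Csf1r product, differed by 1.66 ± 0.35 (0.00022).

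Around arginase, 7 of 11 tested genes of arginine and polyamine metabolism were higher and 2 lower in control mice, and 6 and 2 in diabetic mice. The share of all tested genes called higher was 54.4% in control and 48.1% in diabetic mice. The lower genes, named after their values were seen, were Sms (-1.16 in control, -1.02 in diabetic mice), which makes spermine, and Oat (-0.84 and -0.82), which uses ornithine. Quantile normalization turned the median of this list from 0.79 to -0.11 in control and from 0.61 to -0.16 in diabetic mice. Sat1, which acetylates polyamines, differed by 2.48 ± 0.26 (limma adjusted p = 6.9e-08) and the arginine transporter gene Slc7a1 by 1.93 ± 0.21 (9.8e-08) in control mice. Of 9 tested genes of hemoglobin scavenging and heme breakdown, 6 were higher in both mouse groups and none was lower. With median-of-ratios scaling 5 were higher and 2 lower. Heme oxygenase Hmox1 differed by 2.92 ± 0.50 (2.3e-05) and biliverdin reductase Blvrb by 2.09 ± 0.25 (2.8e-07) in control mice, while Cd163 itself was not called.

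The genes nearest to each member over the 24 libraries, by root mean square difference of centred log2(RPKM + 0.5), are given as a description, since all points share libraries, muscles and library sets. Csf1r lay nearest to Emr1 (0.23), the gene of the macrophage surface protein F4/80. Mrc1 lay nearest to Csf1 (0.29) and F13a1 nearest to Mrc1 (0.47). Lyve1 was nearest to Cd163 (0.40), Cd163 to Mettl4 (0.35) and Folr2 to Aoah (0.31). Tgfbi was nearest to Fam114a1 (0.24), Arg1 to Mmp9 (0.71), Cbr2 to Slc2a3 (0.45) and Retnla to Prr33 (0.47). Among the members, Retnla and Arg1 were farthest apart, at 3.11.

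Between diabetic and control mice no member passed the test in either muscle. In the gastrocnemius 0 of 10 were called, beside 0.00808% of all tested genes (1). All 10 differences were negative there, with a median of -0.31, while 4541 of the 12382 tested genes were positive, with a median of -0.06 over all of them. Values near 0 did not keep their sign: Csf1r, Folr2, Retnla and Cbr2 turned positive when some single libraries were left out, up to 0.20, 0.16, 0.35 and 0.05. Fibroblast markers had a median of -0.38 in this contrast, with 1 of 7 positive, and erythroid markers -2.18, with 0 of 5 positive. None of either list was called, and their part in the member values was not tested. In the adductor the medians were -0.04 and 0.04, and again 0 of 10 were called beside 0.0323% of all tested genes (4). At an unadjusted p under 0.05, 1 member passed in the gastrocnemius and none in the adductor, beside 1.26% and 2.74% of all tested genes. With voom on the recovered reads 0 members were called in both muscles. The same held with a term for replicate number shared by control and diabetic libraries, which does not pair libraries of 1 animal. No member separated the 6 diabetic from the 6 control libraries without overlap, as 0.218% of tested genes did in the adductor and 0.0646% in the gastrocnemius.

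Lyve1 had the smallest unadjusted p. In the gastrocnemius its control libraries 1 to 6 held 5.35, 4.35, 2.33, 2.06, 1.99 and 1.79 RPKM and its diabetic libraries 1.25, 1.64, 1.86, 2.17, 0.490 and 0.753. The first library set ran from 2.33 to 5.35 in control and 1.25 to 2.17 in diabetic mice, and the second from 1.79 to 2.06 and 0.490 to 0.753. Within each set, then, every diabetic library lay below every control library. Of all tested genes, 1.23% did not overlap in either direction in the first set and 25.2% in the second. The share that did not overlap in both sets was not counted. The pooled difference was -0.89 ± 0.30 (limma adjusted p = 0.999). First-set libraries gave -0.97 ± 0.28 (limma adjusted p = 1), second-set libraries -1.13 ± 0.38 (0.32), and a fit with a term for the set -1.04 ± 0.22 (0.13). In the adductor Lyve1 differed by -0.55 ± 0.30 (limma adjusted p = 1). The first set alone gave -0.74 ± 0.28 and the second -0.51 ± 0.38, and the groups overlapped in both.

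Arg1 in the gastrocnemius had a pooled difference of -1.10 ± 0.74 (limma adjusted p = 0.999), with -1.29 ± 1.16 in the first and -1.38 ± 0.40 in the second library set. The second-set libraries held 2.31, 4.63 and 1.12 RPKM in control and 0.865 and 0.380 in diabetic mice, and did not overlap. In that set 25.2% of all tested genes did not overlap. Tgfbi differed by -0.54 ± 0.34 (0.999) pooled, by -0.34 ± 0.52 in the first set and by -0.93 ± 0.26 in the second. Csf1r and Folr2 differed by -0.05 ± 0.52 and -0.08 ± 0.43, Mrc1 by -0.32 ± 0.44, F13a1 by -0.49 ± 0.57, Cd163 by -0.30 ± 0.38, Cbr2 by -0.16 ± 0.48 and Retnla by -0.01 ± 0.43. Without the gastrocnemius libraries lowest in macrophage markers, Lyve1 differed by -0.98 ± 0.34, Arg1 by -1.27 ± 0.66 and Tgfbi by -0.66 ± 0.30, all at an adjusted p of 1.

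**Figure D5:**
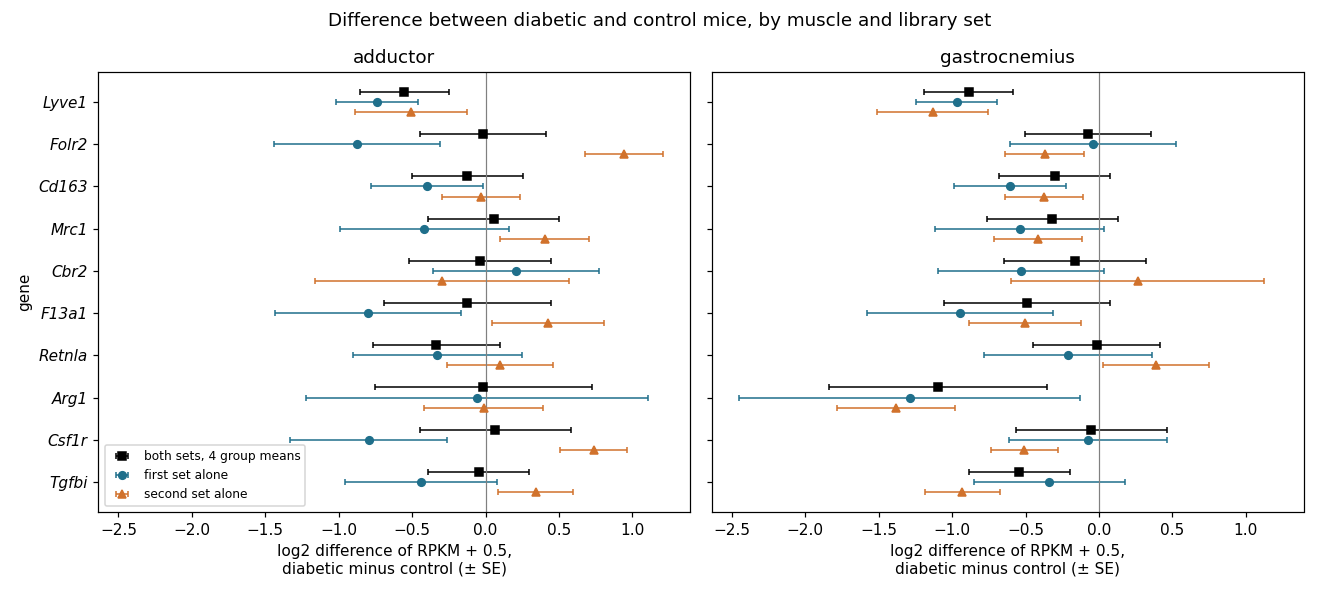
Log2 difference of RPKM + 0.5 between diabetic and control mice, ± SE from limma, for the 10 members in the adductor (left) and gastrocnemius (right); black squares are the fit to all libraries, circles the first and triangles the second library set alone. Lyve1, Cd163 and Arg1 each lie left of 0 in all 6 estimates, of which the squares reuse the libraries of the circles and triangles. Folr2 and Csf1r lie on opposite sides of 0 in the library sets of the adductor.

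In the adductor the diabetes differences of Csf1r and Folr2 had opposite signs in the library sets. Csf1r held 15.5, 23.0 and 6.86 RPKM in the first-set control libraries and 3.56, 9.76, 7.80 and 11.8 in the diabetic ones, a difference of -0.80 ± 0.54. In the second set it held 3.40, 2.50 and 2.43 in control and 5.0 and 4.82 in diabetic libraries, a difference of 0.74 ± 0.23. Folr2 differed by -0.88 ± 0.57 and by 0.94 ± 0.27. The difference of the diabetes effects between the sets was 1.82 ± 0.75 for Folr2 (limma adjusted p = 0.956) and 1.53 ± 0.70 for Csf1r (0.956), and 0 of 10 members were called, beside 0.0162% of all tested genes. In the adductor 9 of 10 members were positive in this contrast, with a median of 0.60 beside 0.11 for all tested genes. So were 13 of 14 common macrophage markers (0.67), 7 of 7 fibroblast markers (1.28), 6 of 6 adipocyte markers (0.89) and 5 of 5 mast cell markers (0.92), none of them called. Their part in the member values was not tested. In the gastrocnemius that contrast called 0 of 10 members and 0.0646% of all tested genes. At an unadjusted p under 0.05, 2 members passed in the adductor and 0 in the gastrocnemius, beside 4.88% and 2.1% of all tested genes.

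Within the second set, 3 control libraries against 2 diabetic ones, Folr2, Csf1r and Tgfbi did not overlap in the adductor, where 28.6% of all tested genes did not. In the gastrocnemius of that set Lyve1, Folr2, Cd163, Arg1 and Tgfbi did not overlap, beside 25.2% of all tested genes. The adductor count of 3 in 10 is near its background, and the gastrocnemius count of 5 in 10 is above its own, which was not tested. In the first set Lyve1 alone did not overlap in the gastrocnemius, beside 1.23% of all tested genes.

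Whether the diabetes effect depended on the muscle was tested as the difference of the effects, gastrocnemius minus adductor. It called 0 of 10 members and 0% of the 12382 tested genes, with 154 genes (1.24%) at an unadjusted p under 0.05 in limma and 152 in voom, which also called 0. No member had an unadjusted p under 0.05. The largest member difference was that of Arg1, at -1.08 ± 1.05 (limma adjusted p = 1), followed by Tgfbi at -0.50 ± 0.49 (1).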

How the data were processed

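The deposited values are RPKM per RefSeq transcript, which the authors computed from exonic reads with HOMER on mouse build mm9, per the file headers. Aligner and counter, TopHat and HOMER, are named in the submitters' processing notes, and versions are not given in the sources used here. Since the header command sets no strand, a gene and its antisense or overlapping partner may share reads. Whole reads could be recovered for 99.974% of values above 0 (tolerance 0.01 reads), from 33022 transcripts. Every column matched the title of 1 sample.

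From these, log2(RPKM + 0.5) was fitted in limma 3.58.1 (R 4.3.3) as 4 group means, with a variance trend on intensity. Tested were the 12382 genes that reached an RPKM of 1 in 6 or more libraries, 1 transcript per symbol. Benjamini-Hochberg adjustment was over all tested genes within a contrast, and calls were made at 0.05. The contrasts compared the muscles within each mouse group, diabetic with control mice within each muscle, these diabetes effects between the muscles, and the diabetes effects between library sets. All 10 members passed the filter. Low values limit precision: 3 reads of a 1 kb transcript correspond to an RPKM of 0.192 to 0.421, a floor for counting error only. The fitting script was tested on simulated data.

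Members, gene lists, tests and library sets were chosen with earlier results of these data known, so no list is independent evidence. By rule, named genes are all members, up to 4 called genes of each list with the smallest p, and the nearest genes of each member. Outside it, marker genes that set a list's sum or were at or near 0 (Pdpn, Prox1, Ccl21a, Gp9, Il4, Il13), Xist and Ddx3y, and the few lower genes of a list (Cd209b, Cd209f, Cd209g, Maf, Sms, Oat) were named after their values were seen. Lists are described by counts and medians, with no set test. The labels do not tie a replicate number to an animal. Same-numbered libraries of both muscles of a mouse group deviated together (r of 0.254 to 0.736 across genes, 12 pairs). This was taken as pairing in the replicate block alone. The main fit did not pair, so its p-values between the muscles ignore any pairing. Once the means of the library sets were removed, r ran from -0.0901 to 0.627. Replicate number also followed the division into Ddx3y and Xist libraries in every group. The shared deviation, and the calls that the block added, can therefore not be assigned to pairing of animals alone. Alternatives were pseudocounts of 1 and 0.1, no and a stricter filter, median-of-ratios and quantile scaling, voom on recovered reads, a replicate block, a set term, each set alone, the longest transcript, and each library left out.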

Additional observations from a re-analysis of the deposited data

Results flagged for a closer look

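Cbr2 in diabetic gastrocnemius library 5 stood apart from the other libraries of its group, at 46.833 RPKM, while the next highest held 22.4. It was the only such value among 40 sets of 6 libraries (10 members in 4 groups), and chance alone marks about 1 set in 20. This library held Ddx3y RNA, as did the 6 adductor libraries with Cbr2 at 36.4 RPKM or more. The other Ddx3y libraries of its group, numbers 1 and 4, held 22.4 and 20.4 RPKM. Xist libraries 2, 3 and 6 of the group held 12.8, 19.2 and 8.94. The part of this division in the Cbr2 value was not tested.

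In the second library set (3 control against 2 diabetic libraries per muscle), Folr2 and Tgfbi moved in opposite directions between diabetic and control mice in the muscles. Their libraries did not overlap in either muscle, beside 28.6% of all tested genes in the adductor and 25.2% in the gastrocnemius. The share of genes that did not overlap in opposite directions in both muscles was not counted. The mean RPKM of Folr2 was higher in diabetic mice by 3.425 in the adductor and differed by -4.846 in the gastrocnemius. That of Tgfbi was higher by 1.77 in the adductor and differed by -27.26 in the gastrocnemius. In this set, diabetes and a further technical split of the libraries cannot be told apart. In a limma fit of that set alone, the difference of the diabetes effects (gastrocnemius minus adductor) was -1.31 ± 0.38 for Folr2 and -1.27 ± 0.36 for Tgfbi, each with an adjusted p of 0.433. In the first set these differences were 0.83 ± 0.80 and 0.10 ± 0.73, each with an adjusted p of 1.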

How the results depend on the processing

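The number of members called kept within 1.5 times its value in every contrast under all alternatives run. The replicate block raised it from 6 to 7 in control and from 6 to 9 in diabetic mice between the muscles, and left it at 0 in the 3 diabetes contrasts. For the diabetes contrasts within each muscle it was a term for replicate number shared by control and diabetic libraries, which are not of 1 animal. Control and diabetic libraries of the same number had r of -0.659 to 0.822 across genes, positive except for number 4, whose libraries lie in different sets, and of -0.806 to 0.413 once set means were removed. Leaving out 1 library gave 6 to 7 members called in control and 5 to 7 in diabetic mice, and 0 in the diabetes contrasts. None of the called member values changed sign (0 of 156 fits under other settings, 0 of 288 with 1 library left out). Values not called in the main fit, whatever their size, changed sign in 40 of 674 and 106 of 1392 fits.

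Counts over all tested genes moved more in the diabetes contrasts, and the cause was not tested. The adductor count of 4 was 1 in the first set, 14 in the second and 1 without the gastrocnemius libraries lowest in macrophage markers. The gastrocnemius count of 1 was 2 with a pseudocount of 1, 4 with no filter, 2 with quantile normalization, 0 with a set term, 0 in the first set and 27 in the second. The difference of the effects went from 0 to 1 in the second set. The difference between sets in the adductor, 2, was 6 with no filter, 1 with the stricter filter, 4 with median-of-ratios scaling, 6 with quantile normalization, 1 with the longest transcript and 9 without those libraries. In the gastrocnemius the count of 8 was 28, 17 and 13 with no filter, quantile normalization and without those libraries, 12 with median-of-ratios scaling and 0 with voom. Leaving out 1 library gave 1 to 4, 0 to 3, 0 to 0, 0 to 7 and 0 to 33 calls in these contrasts, 7233 to 8011 between the muscles of control mice and 6531 to 7242 in diabetic mice.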
